A study of Mus musculus with 46 samples.

Results

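The livers of untreated mice in late gestation were compared with those of untreated virgin mice, with 5 pregnant and 6 virgin arrays out of 46 in the series, each array being 1 mouse labelled as a biological replicate. The members are the arrays whose labels give no sunscreen treatment. The mice were of the hairless SKH:QS stock, housed singly and, per the protocol, fitted with neck collars, and livers were taken on day 5. The pregnant mice were at about 17 days of gestation, and ages were not given in the sources used here. The other 35 arrays came from mice of the same 2 experiments that received a sunscreen base without particles (formulation), or the same with zinc oxide microparticles (micro ZnO) or nanoparticles (nano ZnO), with 6 virgin mice in each arm and 6, 5 and 6 pregnant mice. Virgin and pregnant mice were handled in 2 separate experiments, so pregnancy and experiment cannot be told apart in any value below.

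In late gestation the maternal liver enlarges and works under placental lactogens, growth hormone, estrogen, progesterone and glucocorticoid. Lactogens and growth hormone signal through STAT5, and the daily pattern of growth hormone sets the many liver genes that differ between male and female mice. Nuclear receptors for bile acids, fatty acids, xenobiotics and steroids set transporters and cytochrome P450 enzymes, while the hepatocyte also supplies most plasma proteins, including clotting factors and hormone carriers.

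The values were deposited on a log2 scale, and the 2 experiments lay on different scales. The median over all probe sets (the groups of probes that measure 1 transcript) was 3.99 to 4.06 on the 5 pregnant arrays and 4.66 to 4.77 on the 6 virgin arrays, a difference of means of -0.70 (exact permutation p = 0.00433, two-sided, the smallest that 5 against 6 arrays can give; adjusted over the 2 array measures tested, 0.00433). The interquartile range was wider on the pregnant arrays, at 3.17 ± 0.03 (SD, n = 5) against 2.97 ± 0.07 (SD, n = 6), with the same p. All 46 arrays were therefore brought to 1 common distribution before any test, so each value below is a level relative to the other genes of its array. After that step, array pairs correlated at 0.98 to 0.99 within each group and at 0.97 to 0.98 between groups. The 11 hepatocyte markers averaged 12.3 to 12.5 on every untreated array. The 3 measured Y-linked genes, which a female mouse lacks, averaged 2.16 to 2.35, and the 19 placental and trophoblast markers averaged 2.59 to 2.66 in pregnant and 2.63 to 2.74 in virgin liver, close to that floor.

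Differences were widespread and mostly small. Of 23410 probe sets with a gene symbol, 7442 (31.8%) passed limma's moderated test at an adjusted p under 0.05, with 3269 (14.0%) higher and 4173 (17.8%) lower in pregnant liver. A change of at least 1.5-fold was reached by 1106 of them (4.72%), 539 higher (2.30%) and 567 lower (2.42%). The split depended on scaling: with each array centred on its median in place of quantile normalization, 6399 were higher and 2849 lower, or 69.2% of calls higher against 43.9%. For 1210 olfactory and vomeronasal receptor probe sets, a class chosen after seeing the data whose genes act in sensory neurons and whose median level here was 2.42, 27.8% were called and 3.55% were also past 1.5-fold. Among 2341 probe sets in the top 10% of mean signal, with a median level of 8.96, 46.5% were called, 19.9% higher and 26.6% lower. In that class 9.95% were also past 1.5-fold. The shares of members called below are to be read against these backgrounds, and those of bright lists against the top-signal class. The size of a change and the separation of single arrays carry more than the call. Both groups' arrays did not overlap for 3763 called probe sets (16.1%).

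**Figure D1:**
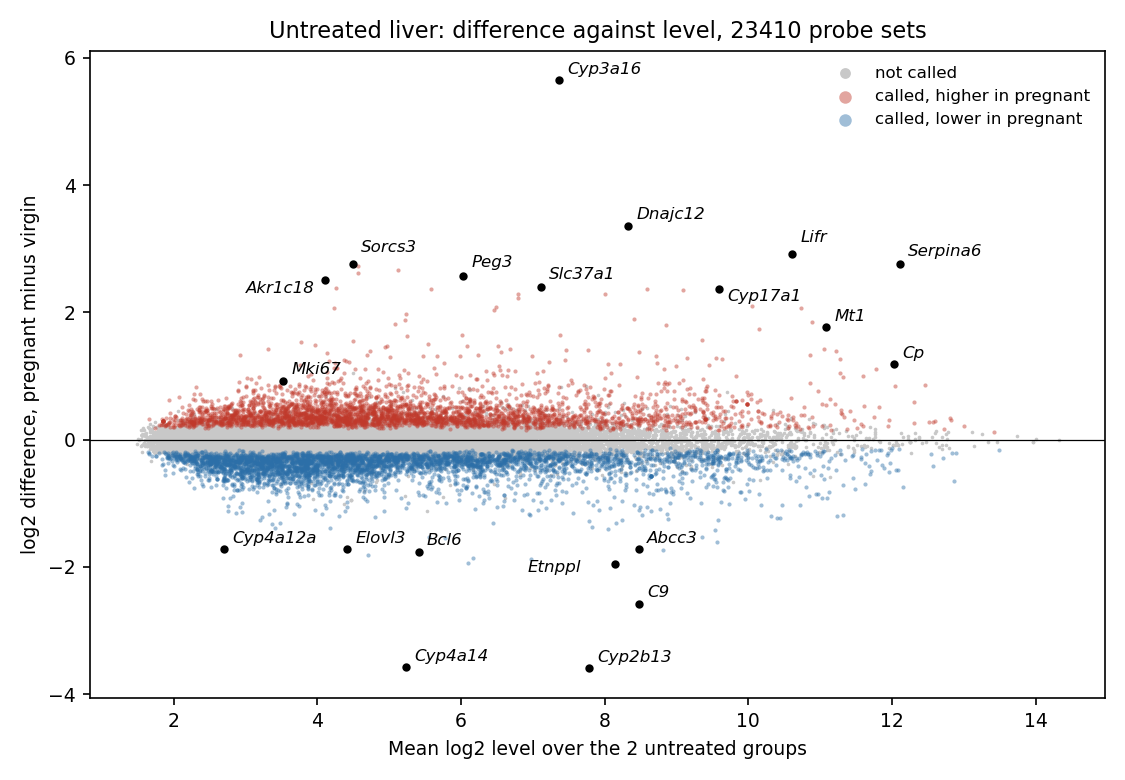
The log2 difference, pregnant minus virgin, of each of 23410 probe sets (y axis) against its mean log2 level over the 2 untreated groups (x axis), with called probe sets in red (higher) and blue (lower). Most called probe sets lie near 0, while Cyp3a16 at 5.65 and Cyp2b13 and Cyp4a14 near -3.6 stand far out.

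The largest rise was that of Cyp3a16, a steroid-hydroxylating P450 of the Cyp3a cluster whose close paralogs share sequence, so some signal may be shared between probe sets. Its level was 10.25, 10.31, 10.14, 10.13 and 10.13 on the pregnant arrays and ran from 2.83 through a median of 4.82 to 5.80 on the virgin arrays. All 5 pregnant arrays were far above all 6 virgin arrays, a difference of 5.65 ± 0.49 (SE; 50.1-fold; adjusted p = 6.89e-12). Serpina6, which encodes corticosteroid-binding globulin, the plasma carrier of glucocorticoids, read 13.56, 13.61, 13.41, 13.56 and 13.32 against 10.51 to 10.84 with a median of 10.81. The groups were far apart and each was tight, giving the lowest adjusted p of the named genes, 6.28e-22, for a 6.78-fold rise (2.76 ± 0.12 on the log2 scale).

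Lifr, the receptor for leukemia inhibitory factor and a subunit shared with related cytokines, was at 12.17, 12.17, 11.80, 12.22 and 11.94 in pregnant liver and 8.49 to 9.82, median 9.10, in virgin liver. The groups did not overlap, and the rise was 7.52-fold (2.91 ± 0.25; adjusted p = 5.36e-12). Dnajc12, a co-chaperone of aromatic amino acid hydroxylases, was nearly constant in virgin liver at 6.61 to 6.72, median 6.64. It read 10.35, 10.55, 9.04, 10.34 and 9.79 in pregnant liver, 10.3-fold higher (adjusted p = 8.53e-10). Cyp17a1, the 17-hydroxylase and lyase of steroid synthesis, rose 5.18-fold, with 11.07, 11.38, 11.04, 10.22 and 10.16 against 8.16 to 8.71, median 8.40 (adjusted p = 1.52e-12). Akr1c18, which inactivates progesterone as a 20-alpha-hydroxysteroid dehydrogenase, read 5.08, 4.97, 4.60, 7.19 and 4.93 against 2.58 to 3.18, median 2.82. Replicate 4 was far above the other pregnant arrays, yet the lowest pregnant array exceeded every virgin one (2.50 ± 0.33; adjusted p = 1.23e-07).

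Several of the remaining large rises came from a dim or near-floor virgin level, so their fold is limited by the floor of the array. Sorcs3, a sortilin-family receptor, rose by 2.76 from virgin values of 2.86 to 3.26, and Colgalt2, a collagen galactosyltransferase, by 2.72 from 3.05 to 3.32. Dnah11, an axonemal dynein heavy chain, rose by 2.66 from 3.72 to 3.90, and Serpina16, a member of the alpha-1-antitrypsin clade, by 2.39 from 2.87 to 3.18. Serpina16 was uneven among the pregnant mice, at 6.07, 5.75, 5.16, 6.68 and 3.58, though its groups did not overlap (adjusted p = 5.12e-05). Peg3, an imprinted zinc finger gene expressed from the paternal allele, read 7.28, 7.47, 6.91, 8.07 and 6.85 against 4.33 to 4.95, median 4.79, a 5.95-fold rise. Slc37a1, a sugar-phosphate exchanger, rose 5.28-fold (adjusted p = 2.23e-12), with every pregnant array at 7.74 or more and no virgin array above 6.14.

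Among the 12 largest falls, 4 were of P450s, namely Cyp2b13, Cyp4a14, Cyp2d9 and Cyp4a12a. Cyp2b13, a P450 more abundant in female than in male mouse liver, was at 5.61, 5.46, 6.28, 6.45 and 6.13 in pregnant liver and 9.28 to 9.94, median 9.56, in virgin liver. No array of one group came near the other, a difference of -3.59 ± 0.22 (12.1-fold lower; adjusted p = 1.28e-16). Cyp4a14, a fatty acid omega-hydroxylase and PPARA target, read 3.28, 3.50, 3.69, 3.71 and 3.08 against 5.99 to 8.44, median 7.08, an 11.9-fold fall (adjusted p = 1.36e-10). Cyp4a12a, an omega-hydroxylase abundant in males, was at 1.79 to 1.91 in all pregnant arrays, below the mean of the Y-linked genes, and at 2.62 to 5.59, median 3.09, in virgin liver. Its measured difference of -1.72 is limited by that floor (adjusted p = 3.27e-06). Paralogs of the Cyp2b and Cyp4a clusters share sequence, so their probe sets may share signal.

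C9, the complement component that forms the membrane pore, fell 5.96-fold, with 6.83, 7.03, 7.33, 6.75 and 8.02 against 9.48 to 10.03, median 9.77. The groups were apart by more than 1 log2 unit (adjusted p = 3.19e-13). Etnppl, which degrades phosphoethanolamine, fell 3.87-fold, and Enpp3, an ectonucleotide pyrophosphatase, fell 3.63-fold. Bcl6, a transcriptional repressor that opposes STAT5 at many liver genes, read 4.82, 4.25, 4.75, 4.69 and 4.15 against 5.42 to 7.09, median 6.21, a 3.38-fold fall without overlap (adjusted p = 3.61e-05). Abcc3, a basolateral exporter of bile acids and conjugates, fell 3.28-fold from 9.03 to 9.55 in virgin liver to 7.31, 7.52, 7.98, 6.86 and 8.41 (adjusted p = 1.54e-07). Serpina4-ps1, an annotated pseudogene of the kallistatin locus, fell by 1.82, from 4.70 to 6.85 to 3.62, 3.57, 3.39, 3.86 and 4.57, and its highest pregnant array was just under the lowest virgin one.

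**Figure D2:**
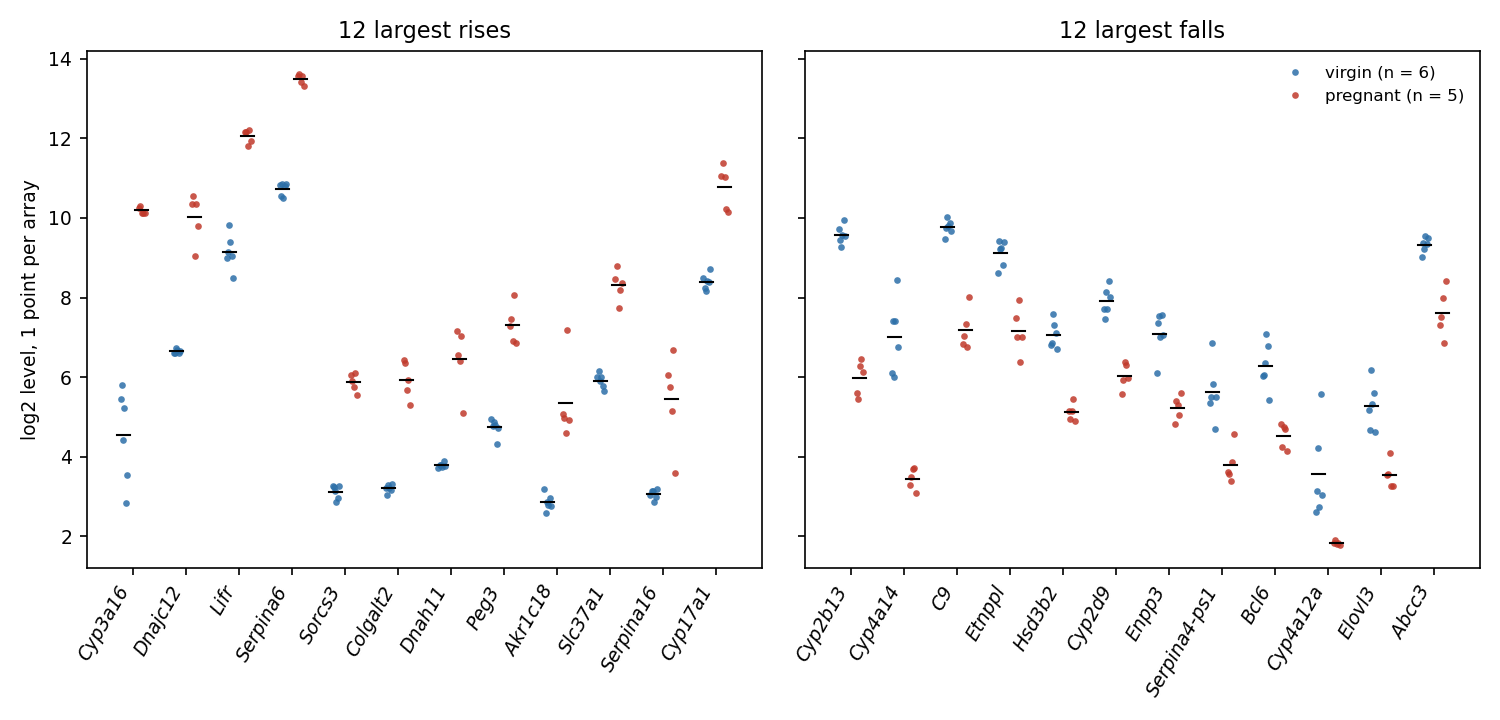
The log2 level on each array (y axis) of the 12 genes with the largest rises (left) and the 12 with the largest falls (right) among called genes whose arrays did not overlap, with virgin arrays in blue, pregnant arrays in red and group means as black lines. Akr1c18 and Serpina16 show 1 pregnant array away from the others, and Cyp4a12a has all pregnant arrays near 1.8.

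Of 21 measured genes of lactogen and growth hormone signalling, 4 were higher and 4 lower, with a median difference of 0.13 against -0.02 over all probe sets. That balance depended on scaling, with 9 higher and 2 lower under median centring (median 0.35) and 6 and 3 on the deposited values relative to the median probe set (0.26). Ghr, the growth hormone receptor, was at 11.96, 11.91, 11.72, 11.94 and 11.30 in pregnant and 9.51 to 9.82, median 9.70, in virgin liver. This was a 4.21-fold rise with wide separation (adjusted p = 8.14e-12). Igfbp4, a binding protein of insulin-like growth factors, rose by 0.55 ± 0.09, and Stat5b, the signal transducer itself, fell by 0.51 ± 0.12, with an adjusted p of 0.0922 under median centring. Igf1, the main hormone made by the liver under growth hormone, read 9.59, 9.28, 9.70, 9.41 and 9.76 against 9.70 to 9.97, median 9.84. Its groups overlapped, and the fall of 0.29 (adjusted p = 0.00868) was -0.22 without pregnant replicate 2 (adjusted p = 0.0547) and -0.03 under median centring (adjusted p = 0.861).

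The feedback inhibitors that STAT5 induces were not called in untreated mice. Socs2 read 7.41, 7.77, 7.68, 7.72 and 8.46 against 5.86 to 8.26, median 6.79, with overlapping groups (0.83 ± 0.37; adjusted p = 0.0847). The call turned on single virgin arrays and on scaling: it was 1.09 without virgin replicate 2 (adjusted p = 0.0232), 0.99 without virgin replicate 3 (adjusted p = 0.0474) and 1.08 under median centring (adjusted p = 0.0129). Cish differed by 0.42 ± 0.26 (adjusted p = 0.212). In the sunscreen arms both were called higher with formulation (Socs2 1.94, Cish 0.86) and with micro ZnO (1.65 and 0.74). With nano ZnO neither was called (0.71 and 0.34). A second, dimmer probe set of Socs2 gave 0.27 in untreated mice (adjusted p = 0.326). Igfbp1, an insulin-suppressed binding protein, was higher at 9.43, 9.17, 9.80, 9.94 and 9.48 against 7.56 to 8.85, median 8.52, without overlap (1.15 ± 0.42; adjusted p = 0.0302). Its adjusted p was 0.0812 without virgin replicate 3, 0.0606 without pregnant replicate 3 and 0.072 without pregnant replicate 4. The differences there were 0.98, 1.09 and 1.06. In the formulation arm the Igfbp1 difference was reversed, at -1.23 (adjusted p = 0.0125). It was 1.86 with micro ZnO (adjusted p = 0.000491) and 0.23 with nano ZnO (adjusted p = 0.688). Pregnant means in these arms were 9.48, 9.84 and 9.62, and virgin means 10.71, 7.98 and 9.39. Esr1, the estrogen receptor, rose by 0.48 ± 0.15 with overlapping groups (adjusted p = 0.013; 0.41 and 0.0502 without pregnant replicate 1). Prlr, the prolactin receptor, was not analysed here.

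Genes known to be higher in male liver were mostly lower in pregnant liver. Of 21 measured male-biased members, 14 (66.7%) were lower and 1 higher, with a median of -0.55, against 17.8% lower over all probe sets. Cyp2d9, a P450 abundant in males, fell 3.67-fold, from 7.45 to 8.42 with a median of 7.87 to 5.56, 5.93, 6.39, 6.30 and 5.97 (adjusted p = 8.81e-12). Hsd3b2, a hydroxysteroid dehydrogenase, fell 3.83-fold, and Elovl3, a fatty acid elongase, fell 3.29-fold to 3.54, 3.56, 4.10, 3.27 and 3.28 from 4.63 to 6.19, median 5.26. Slco1a1, an organic anion uptake transporter, was not called (-0.41 ± 0.48; adjusted p = 0.557), with pregnant arrays at 7.63, 6.23, 6.30, 5.59 and 6.54 inside the virgin range of 5.21 to 8.18. The mean of the list was 6.04 to 6.25 in pregnant liver and 6.65 to 7.35 in virgin liver, with virgin replicates 3 and 5 highest at 7.35 and 7.29. Without those 2 arrays, an alternative chosen after seeing the data, 11 of 21 were lower, with a median of -0.37.

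Of 19 female-biased genes, 9 (47.4%) were higher and 3 lower, with a median of 0.40, against 14.0% higher over all probe sets. The same alternative left 5 higher and 3 lower, with a median of 0.22. Beside Cyp3a16, Cyp3a44 rose 3.48-fold (1.80 ± 0.17; adjusted p = 7.75e-11). A1bg, a plasma glycoprotein gene, read 12.09, 11.83, 11.85, 11.99 and 11.78 against 9.88 to 11.40, median 10.80, a 2.41-fold rise without overlap. Sult3a1, a sulfotransferase, rose 1.85-fold to a narrow 11.26 to 11.34. Cyp2b13, itself female-biased, was 1 of 3 members that ran against these. All 3 fell by at least 1.5-fold without overlap, while 7 members rose at least 1.5-fold and 5 rose without overlap.

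Among 35 P450 genes of families 1 to 3, 19 (54.3%) were lower and 8 higher, with a median of -0.29; under median centring the counts were 10 lower and 11 higher and the median -0.05. The falls that stood clear of scaling were large: Cyp2c50, an arachidonate epoxygenase, read 8.47, 9.05, 8.96, 8.33 and 9.05 against 10.18 to 10.57, median 10.39, 3.03-fold lower (adjusted p = 7.34e-11). Cyp2b10, the classical target of the xenobiotic receptor CAR, fell 2.89-fold (-1.53 ± 0.31; adjusted p = 0.000189). Cyp3a11, the main drug-metabolizing Cyp3a and a PXR target, fell 2.29-fold (-1.20 ± 0.15; adjusted p = 4.07e-08) while Cyp3a16 and Cyp3a44 of the same cluster rose. Cyp2d40 and Cyp2c67 rose by 1.31 and 1.18.

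Conjugating enzymes gave a like pattern, with 15 of 31 (48.4%) lower and 3 higher, a median of -0.27, and 7 lower and 6 higher under median centring (median -0.02). Gsta4, a glutathione transferase for lipid aldehydes, was at 8.87, 8.82, 9.04, 8.61 and 8.86 against 9.74 to 9.96, median 9.81, 1.99-fold lower (adjusted p = 1.02e-09). Gstt1 and Gstm1, other glutathione transferases, fell by 0.86 and 0.85. Ugt3a1, a sugar transferase, fell 2.58-fold, with pregnant replicate 4 lowest at 5.86 and the other 4 at 7.36 to 7.60. All 4 had no overlap between groups.

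Of 19 bile acid and organic anion transporters, 10 (52.6%) were lower and 2 higher, with a median of -0.36, and 6 were lower and 3 higher under median centring. Abcg5, which with its partner exports sterols into bile, was at 7.08, 7.56, 7.77, 6.69 and 7.72 against 8.24 to 8.76, median 8.45 (-1.11 ± 0.24; adjusted p = 0.000286). Abcg8, that partner, fell by 0.87 ± 0.27 with overlapping groups (adjusted p = 0.0112, and 0.0525 under median centring). The uptake carriers Slc10a1, for conjugated bile acids, and Slco1b2, for organic anions, fell by 0.71 and 0.75, both without overlap. Pregnant replicates 1 and 4 were lowest for Abcg5, Abcg8, Slc10a1 and Slco1b2. Abcb11, the canalicular bile salt export pump, read 10.40, 10.76, 10.58, 10.38 and 10.61 against 10.53 to 10.74, median 10.58, and was not called (-0.05 ± 0.08; adjusted p = 0.684).

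Of 20 genes of bile acid synthesis and FXR signalling, 6 (30.0%) were lower and 1 higher, with a median of -0.17 (0.07 under median centring, with 1 lower and 2 higher). Cyp7a1, the rate-limiting enzyme of bile acid synthesis, read 10.42, 10.57, 9.33, 9.68 and 10.41 against 8.87 to 9.91, median 9.24. Its groups overlapped, and the difference of 0.75 ± 0.43 was not called (adjusted p = 0.189), though it was in a fit of the 11 untreated arrays alone (adjusted p = 0.0281). Scp2, a sterol carrier and peroxisomal thiolase, fell 1.91-fold to 9.33, 9.38, 9.59, 9.76 and 9.38 from 10.20 to 10.64 (adjusted p = 8.81e-12).

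Of 20 cholesterol synthesis genes, 6 (30.0%) were higher and none lower, with a median of 0.22. Under median centring and on the deposited values relative to the median probe set, 12 were higher and none lower (medians 0.48 and 0.39). Sqle, the squalene epoxidase, rose by 0.76 ± 0.18 and Mvd, a mevalonate pathway decarboxylase, by 0.76 ± 0.19, both with overlapping groups. The list mean was highest on pregnant replicates 5 and 2, at 9.62 and 9.26 against 8.89 to 9.02 on the other pregnant and 8.78 to 9.08 on the virgin arrays. Without those 2 arrays, chosen after seeing the data, 0 were higher and 1 lower by the same limma test, with a median of 0.04, and Sqle and Mvd had adjusted p of 0.0845 and 0.0974. The same 2 arrays stood apart in clock genes, as given below, and their part in the result was not tested beyond leaving them out.

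Of 30 fatty acid and triglyceride synthesis genes, 5 were higher and 5 lower, but 6 were higher and 1 lower both under median centring and on the deposited values relative to the median probe set. Pnpla3, a lipase and acyltransferase of lipid droplets, rose 4.66-fold, at 9.42, 7.67, 6.97, 7.58 and 7.90 against 5.17 to 7.41 with a median of 5.37 (adjusted p = 5.03e-07). Virgin replicate 1 at 7.41 was the array that overlapped, the other 5 lying at 5.17 to 5.47. The desaturases Fads1 and Fads2, which make long polyunsaturated fatty acids, rose by 0.99 and 1.04 without overlap. Scd1, the desaturase that makes monounsaturated fatty acids, fell by 0.74 ± 0.23 (adjusted p = 0.011), but by 0.58 (adjusted p = 0.0596) without pregnant replicate 2 and by 0.41 (adjusted p = 0.128) under median centring. Thrsp, a lipogenic regulator, rose by 1.26 ± 0.34 with overlapping groups, and by 0.82 (adjusted p = 0.109) without pregnant replicates 2 and 5.

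Of 35 genes of fatty acid oxidation and PPARA targets, 13 (37.1%) were lower and 1 higher, with a median of -0.19, which was 0.03 under median centring with 7 lower and 5 higher. Cyp4a10, an omega-hydroxylase beside Cyp4a14, fell 2.47-fold to 8.07, 7.92, 7.56, 7.67 and 6.32 from 8.47 to 9.30. Acaa1b, a peroxisomal thiolase, and Ehhadh, the peroxisomal bifunctional enzyme, fell by 1.10 and 0.67, both without overlap. Cpt1a, which controls fatty acid entry into mitochondria, was not called (0.11 ± 0.19; adjusted p = 0.705). It was called lower with micro ZnO (-0.52; adjusted p = 0.029) but not with formulation (0.01) or nano ZnO (-0.32). The falls named here, in omega and peroxisomal oxidation, are only some of the 13 lower members. They do not place the fall within the pathway. Of 25 apolipoprotein and lipoprotein genes, 3 were higher and 5 lower, but 13 were higher and 1 lower under median centring.

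The unfolded protein response and chaperone list holds genes of the endoplasmic reticulum (ER) that fold secreted proteins and clear misfolded ones. Of its 28 measured members, 15 (53.6%) were higher and none lower, with a median of 0.39, against 14.0% higher over all probe sets. In the fits of the formulation, micro ZnO and nano ZnO arms, which share no array with the untreated one, 18, 22 and 17 were higher and 2, 0 and 0 lower. The first 250 bases upstream of the gene start are shown for 3 of the risers because they carry the ER stress response element, shown in capitals: CCAAT, then any 9 bases, then CCACG, searched on both strands, so that on the reverse strand it reads from CGTGG to ATTGG. The sequences are from RefSeq on build GRCm38.p6, 5′ to 3′ on the gene's strand, for Calr at chr8:84846932-84847181 (minus strand), Pdia6 at chr12:17266339-17266588 (plus strand) and Hsp90b1 at chr10:86705445-86705694 (minus strand).
Calr: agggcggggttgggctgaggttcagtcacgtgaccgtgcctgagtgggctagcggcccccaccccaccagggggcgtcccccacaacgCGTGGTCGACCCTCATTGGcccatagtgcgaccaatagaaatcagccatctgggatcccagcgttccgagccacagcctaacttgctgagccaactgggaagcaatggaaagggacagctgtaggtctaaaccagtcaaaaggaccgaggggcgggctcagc
Pdia6: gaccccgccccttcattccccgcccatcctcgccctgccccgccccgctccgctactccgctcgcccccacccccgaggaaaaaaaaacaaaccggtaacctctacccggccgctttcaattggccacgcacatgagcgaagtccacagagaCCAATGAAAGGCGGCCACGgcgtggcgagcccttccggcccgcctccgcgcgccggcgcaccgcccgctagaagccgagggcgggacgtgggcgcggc
Hsp90b1: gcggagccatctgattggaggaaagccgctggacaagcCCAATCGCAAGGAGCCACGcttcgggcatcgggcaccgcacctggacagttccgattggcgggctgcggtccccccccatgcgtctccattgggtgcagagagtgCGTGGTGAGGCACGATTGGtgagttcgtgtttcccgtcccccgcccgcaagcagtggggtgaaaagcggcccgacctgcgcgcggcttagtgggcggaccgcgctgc
Of 25 list members with a promoter in the RefSeq table, 9 held the element, against 35 of 27025 genes (0.13%) with a promoter of this length. Of those 9, 5 were called higher, and of the 16 without it, 9 were. The members that held it and were not called differed by -0.13 to 0.70. Whether the element bears on the rise was not tested. A match is a description of the letters and not a measured binding site.

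Calr, the calcium-binding chaperone calreticulin, read 11.45, 11.29, 11.19, 11.85 and 10.98 against 10.32 to 10.81, median 10.58, without overlap (0.77 ± 0.14; adjusted p = 2.5e-05). Pdia6 and P4hb, disulfide isomerases, rose by 0.62 and 0.47, also without overlap. Hsp90b1, the ER form of HSP90, rose by 0.42 ± 0.12, with virgin replicate 1 at 11.41 inside the pregnant range of 11.30 to 11.90 and virgin replicate 4 at 11.30 level with its lower end. Canx and Dnajc3, which also hold the element, rose by 0.23 and 0.44, and Sdf2l1, another chaperone, rose 1.74-fold. Hspa5, the master chaperone BiP, holds the element too and was not called, at 11.30, 10.89, 10.73, 11.23 and 11.13 against 10.37 to 11.32 (0.24 ± 0.19; adjusted p = 0.353).

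Of 25 coagulation and fibrinolysis genes, 17 (68.0%) were higher and 2 lower, with a median of 0.28, the highest share called higher of the lists. F7, the factor that starts the extrinsic pathway, was at 10.31, 10.60, 10.08, 10.10 and 9.93 against 8.72 to 9.03, median 8.93, 2.44-fold higher (adjusted p = 9.04e-09). Serpina10, an inhibitor of activated factor X, rose 2.15-fold, F5 1.65-fold, F10 1.56-fold and F2, prothrombin, 1.42-fold, with no overlap for any. F2 was narrow in both groups, at 11.99 to 12.12 and 11.51 to 11.61 (adjusted p = 7.38e-11). The 2 lower members were Proc, the anticoagulant protein C (-0.29), and F12 (-0.25); under median centring they were -0.01 (adjusted p = 0.918) and 0.02 (adjusted p = 0.83). Of 19 plasma carriers and secreted proteins, 8 were higher and 2 lower (13 and 1 under median centring). Ttr, the carrier of thyroid hormone and retinol-binding protein, fell by 0.65 ± 0.08, to 12.59, 12.36, 12.72, 12.36 and 12.65 from a tight 13.15 to 13.23, while Serpina6 rose as given above.

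Of 31 acute-phase genes, 18 (58.1%) were higher and none lower, with a median of 0.41. Cp, the copper ferroxidase ceruloplasmin, read 12.68, 12.66, 12.59, 12.74 and 12.44 against 11.34 to 11.57, median 11.40, 2.28-fold higher with an SE of 0.06 on 1.19 (adjusted p = 6.05e-19). Lcn2, which binds bacterial siderophores, rose 3.70-fold, at 9.28, 9.94, 8.98, 8.99 and 9.58 against 6.52 to 7.95, median 7.58. Itih4 and Fgl1, secreted by hepatocytes, rose by 0.86 and 1.00 without overlap. The serum amyloid genes Saa1 and Saa2 rose by 1.48 and 1.65 with overlap, pregnant replicate 4 being low in both at 5.52 and 7.07. The adjusted p of Saa1 was 0.0241 with all arrays and 0.0501 to 0.0567 when virgin replicate 5 or 6 or pregnant replicate 2, 3 or 5 was left out (1.33 to 1.40). Without pregnant replicates 2 and 5, Saa1 and Saa2 had adjusted p of 0.14 and 0.127. Saa3, made largely by macrophages, was not called (-0.03 ± 0.58; adjusted p = 0.972), nor was Orm1, an abundant acid glycoprotein (0.02 ± 0.11; adjusted p = 0.928, but 0.29 and 0.0451 under median centring). Without pregnant replicates 2 and 5 the list had 9 higher and none lower, with a median of 0.27.

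Neutrophil markers rose beside the acute-phase genes, and Lcn2, which neutrophils make as well, is counted in both lists. Of 17 neutrophil markers, 11 (64.7%) were higher, all without overlap, and none was lower, with a median of 0.78 and the same count under every scaling. Elane, neutrophil elastase, was at 5.11, 5.50, 5.36, 5.52 and 5.32 against 3.92 to 4.20, median 4.01, 2.51-fold higher (adjusted p = 3.3e-09). S100a8 and S100a9, the calprotectin subunits, rose 2.74-fold and 2.49-fold, Ngp 2.78-fold and Prtn3 2.47-fold. The list mean was 4.76 to 5.04 in pregnant and 4.02 to 4.17 in virgin liver, and its part in the acute-phase values was not tested. In whole liver, more cells of a type and more RNA per cell cannot be told apart. Of 20 Kupffer cell and macrophage markers 1 was higher and 1 lower, and Clec4f, which marks Kupffer cells, was not called (0.15 ± 0.17; adjusted p = 0.547). Of 21 endothelial markers 4 were lower, of 11 erythroid markers 2 were lower, and of 16 stellate and fibroblast markers 3 were lower and 1 higher. Among these, Lrat, which stores retinol as esters in stellate cells, fell by 0.83 ± 0.14 without overlap. T and NK cell markers had 3 of 17 higher, B and plasma cell markers 1 of 14 higher and 1 lower, cholangiocyte markers 2 of 9 each way, and hepatocyte markers 4 of 11 higher and 2 lower (9 and 2 under median centring).

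**Figure D3:**
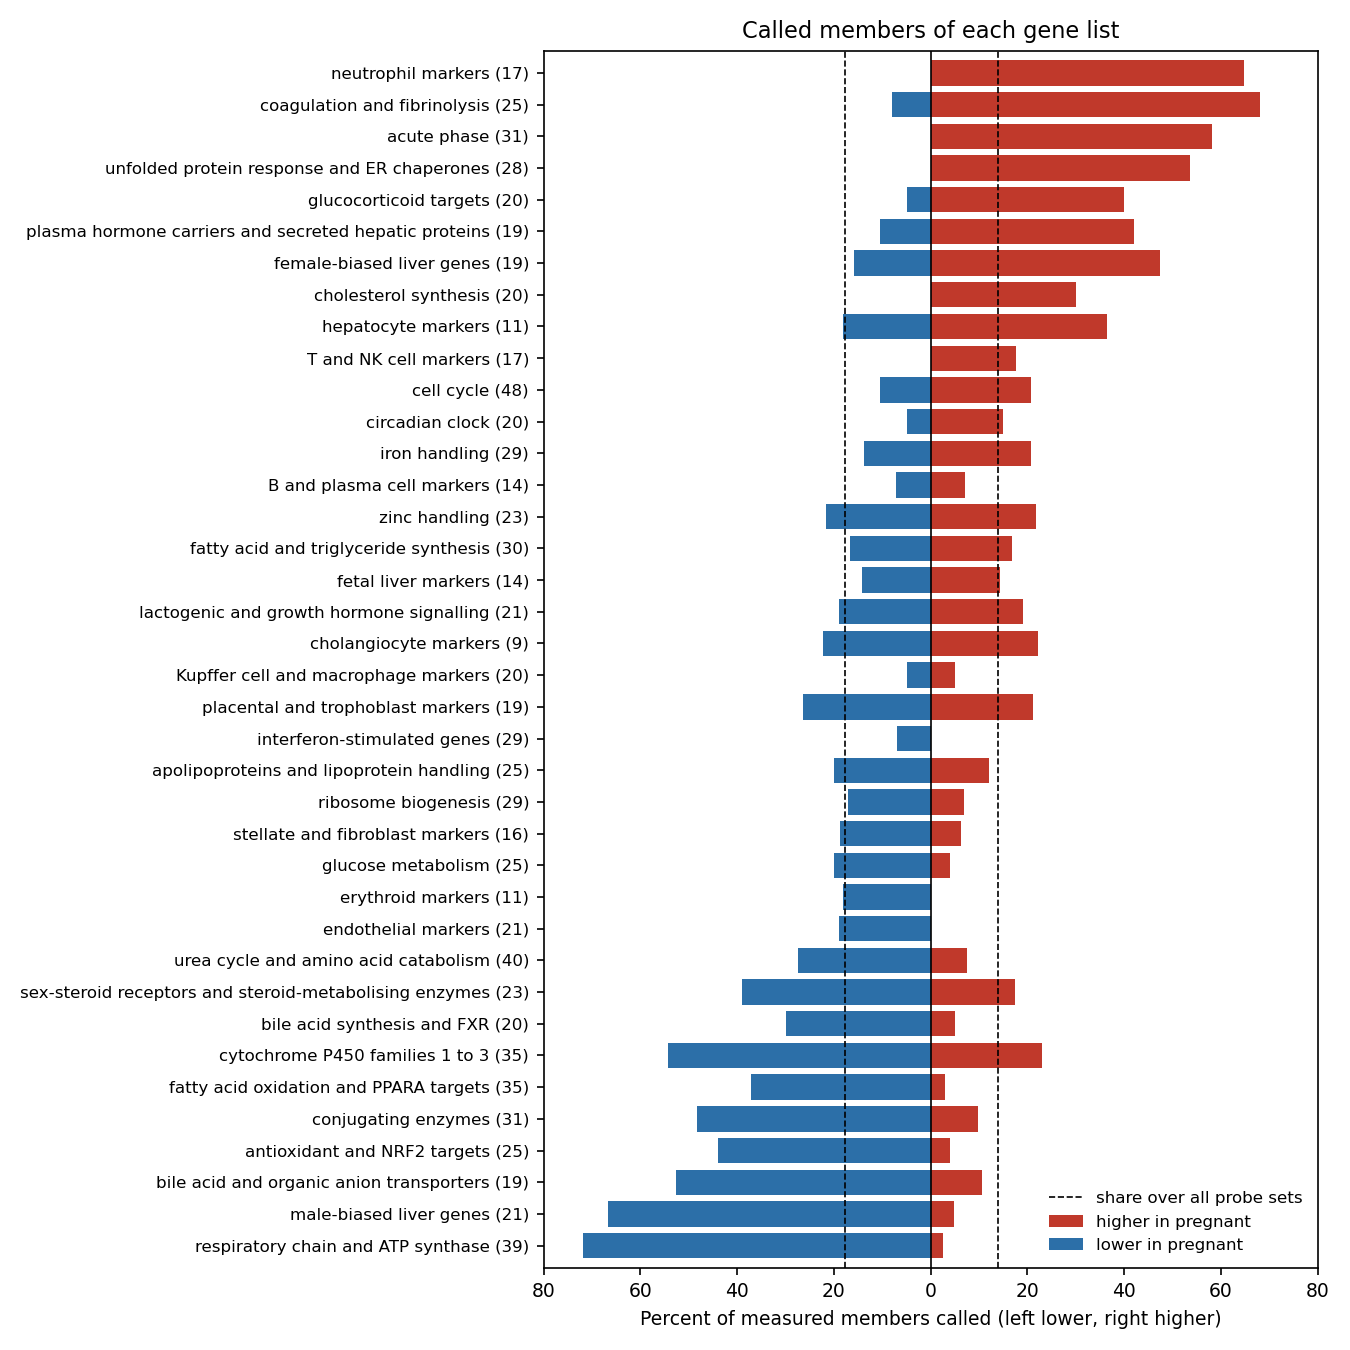
The percent of measured members of each gene list that were called higher (red, right) or lower (blue, left) in pregnant liver, with the number measured in brackets and the share over all 23410 probe sets as dashed lines (14.0% higher, 17.8% lower). Coagulation, neutrophil, acute-phase and chaperone lists extend furthest to the right, and the respiratory chain and male-biased lists furthest to the left.

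Respiratory chain genes showed the reverse pattern. Of 39 members, 28 (71.8%) were lower and 1 higher, with a median of -0.28, and the list mean was 8.98 to 9.14 in pregnant and 9.30 to 9.40 in virgin liver. Cycs, cytochrome c, read 8.47, 8.25, 8.30, 8.54 and 8.14 against 8.80 to 9.34, median 9.20 (-0.79 ± 0.12; adjusted p = 1.22e-06), and a second probe set of it gave -0.60. Sdhd of complex II, Ndufa4 and Cox7b fell by 0.65, 0.65 and 0.58, each without overlap. The counts depended on scaling: under median centring 8 were lower and 5 higher, with a median of -0.04, and on the deposited values relative to the median probe set 11 were lower and 3 higher, with a median of -0.13.

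Of 25 antioxidant and NRF2 target genes, 11 (44.0%) were lower and 1 higher (6 and 4 under median centring). Gpx1, the main cytosolic glutathione peroxidase, was at 10.73, 10.71, 11.02, 10.33 and 10.84 against 11.69 to 11.99, median 11.93, 2.27-fold lower (adjusted p = 2.83e-11). Ephx1, microsomal epoxide hydrolase, fell 2.40-fold and Txn1, thioredoxin, 1.53-fold, both without overlap. Of 40 urea cycle and amino acid genes, 11 (27.5%) were lower and 3 higher (4 and 9 under median centring). That share lower was near the 26.6% of the top-signal class. Prodh, which starts proline breakdown, fell 2.28-fold to 7.75, 8.28, 8.27, 7.41 and 7.94 from 8.77 to 9.31. Tdo2 and Kynu of tryptophan breakdown fell by 0.89 and 0.67, and Tat, tyrosine aminotransferase and a classical glucocorticoid target, rose by 0.59.

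Of 25 glucose metabolism genes, 5 were lower and 1 higher, but 1 was lower and 3 higher under median centring, and 2 were called each way on the deposited values relative to the median probe set. Slc2a2, the glucose transporter GLUT2, read 9.20, 9.69, 9.44, 9.13 and 9.90 against 10.19 to 10.48, median 10.29, 1.77-fold lower without overlap (adjusted p = 0.000322). Pck1, which commits carbon to gluconeogenesis, was at 10.07, 11.11, 11.03, 10.81 and 11.20 against 10.76 to 11.79, median 11.56, and was not called (-0.59 ± 0.27; adjusted p = 0.0893). It was called without virgin replicate 1 (-0.72; adjusted p = 0.0407) and in the fit of the 11 arrays alone (adjusted p = 0.0437).

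Among metal genes, Mt1, a metallothionein that buffers zinc, read 11.60, 12.41, 12.17, 11.60 and 12.07 against 9.33 to 10.92, median 10.22, 3.42-fold higher without overlap (adjusted p = 3.74e-10). Mt2, its neighbour, rose 2.52-fold with overlap, 3 pregnant arrays (11.20, 11.24 and 10.91) lying under the highest virgin one at 11.29. Slc39a14, an importer of zinc and iron, rose 2.31-fold, and Slc39a4, a zinc importer, fell to 7.05, 6.50, 6.73, 7.17 and 6.49 from 7.55 to 7.93 (1.92-fold lower; adjusted p = 1.18e-08). The zinc list as a whole had 5 of 23 higher and 5 lower, and 11 higher and 4 lower under median centring. Of 29 iron genes, 6 were higher and 4 lower, and 10 higher and 1 lower under median centring. Hamp2, a hepcidin paralog not known to control iron, was 4.28-fold higher, at 11.57, 11.21, 11.31, 10.46 and 10.95 against 8.60 to 9.67. Hamp, hepcidin itself, read 10.66, 9.93, 9.23 and 10.98 on pregnant replicates 1, 2, 4 and 5, with replicate 3 just above these, against 9.67 to 11.46, median 10.67, and was not called (-0.39 ± 0.42; adjusted p = 0.518). The 2 genes are near-identical in places, so their probe sets may share signal.

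Of 20 glucocorticoid targets, 8 were higher and 1 lower, with a median of 0.38. Fkbp5, a feedback co-chaperone of the glucocorticoid receptor, was at 7.42, 8.70, 7.83, 8.14 and 8.30 against 6.40 to 7.15, median 6.90, 2.38-fold higher without overlap (adjusted p = 0.000391). The list mean was highest on pregnant replicate 2, at 8.66 against 8.07 to 8.22 on the other 4, and without pregnant replicates 2 and 5 there were 6 higher and 1 lower, with a median of 0.20. Of 20 clock genes, 3 were higher and 1 lower. The clock list mean was 6.53 and 6.71 on pregnant replicates 2 and 5 and 5.93 to 6.08 on the other 3, while all virgin arrays lay at 5.98 to 6.05. Dbp, a clock output that peaks late in the light phase, read 5.62, 7.45, 5.32, 5.87 and 8.34 against 4.96 to 6.23, and Arntl, its antiphase activator, 6.79, 5.57, 6.73, 6.72 and 4.75 against 6.56 to 7.08. Replicates 2 and 5 were thus high in Dbp and low in Arntl, and neither gene was called (adjusted p = 0.191 and 0.151). Bhlhe41, a clock repressor, rose by 0.85 ± 0.17, also highest on those arrays (4.11 and 3.99 against 2.88 to 3.10).

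Of 48 cell cycle genes, 10 (20.8%) were higher and 5 lower, with a median of 0.04. On the deposited values relative to the median probe set the balance turned, with 3 higher and 9 lower (median -0.03). Mki67, the proliferation antigen Ki-67, read 4.38, 3.79, 3.93, 3.76 and 4.09 against 2.90 to 3.22, median 3.06, 1.90-fold higher without overlap (adjusted p = 5.39e-11). Cdc6, which licenses replication origins, and Ccne2, a cyclin of S phase entry, rose by 0.75 and 0.68 without overlap. Top2a and Nusap1, which act at mitosis, fell by 0.44 and 0.38 at levels of 3.30 to 3.65 and 2.75 to 2.97 in virgin liver, near the floor. A second, dimmer probe set of Top2a gave 0.05 (adjusted p = 0.709). The virgin level of Mki67 was as near the floor. The probe sets of Mki67, Cdc6, Ccne2, Top2a and Nusap1 were all below the 40th percentile of mean signal. The list mean was 4.37 to 4.50 in pregnant and 4.33 to 4.49 in virgin liver. Afp, the fetal albumin, was at 4.02, 4.25, 4.27, 4.18 and 4.27 against 3.90 to 4.19 and was not called (0.18 ± 0.08; adjusted p = 0.0671), but it was without virgin replicate 3 (0.22; adjusted p = 0.0368) and without pregnant replicate 1 (0.23; adjusted p = 0.0334). Igf2, the fetal growth factor, fell by 0.44 ± 0.10. Of the other lists, 2 of 14 fetal liver markers were higher and 2 lower, 4 of 19 placental markers higher and 5 lower (7 and 3 under median centring), and 0 of 29 interferon-stimulated genes higher and 2 lower. Of 29 ribosome biogenesis genes, which assemble ribosomal subunits in the nucleolus, 2 were higher and 5 lower. Their balance turned with scaling, to 11 higher and 1 lower under median centring and 10 higher and 3 lower on the deposited values relative to the median probe set. Of 23 steroid receptors and steroid-metabolizing enzymes, 4 were higher and 9 lower. Under median centring 5 were higher and 4 lower, and without virgin replicates 3 and 5, or without pregnant replicates 2 and 5, 4 were higher and 5 lower.

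**Figure D4:**
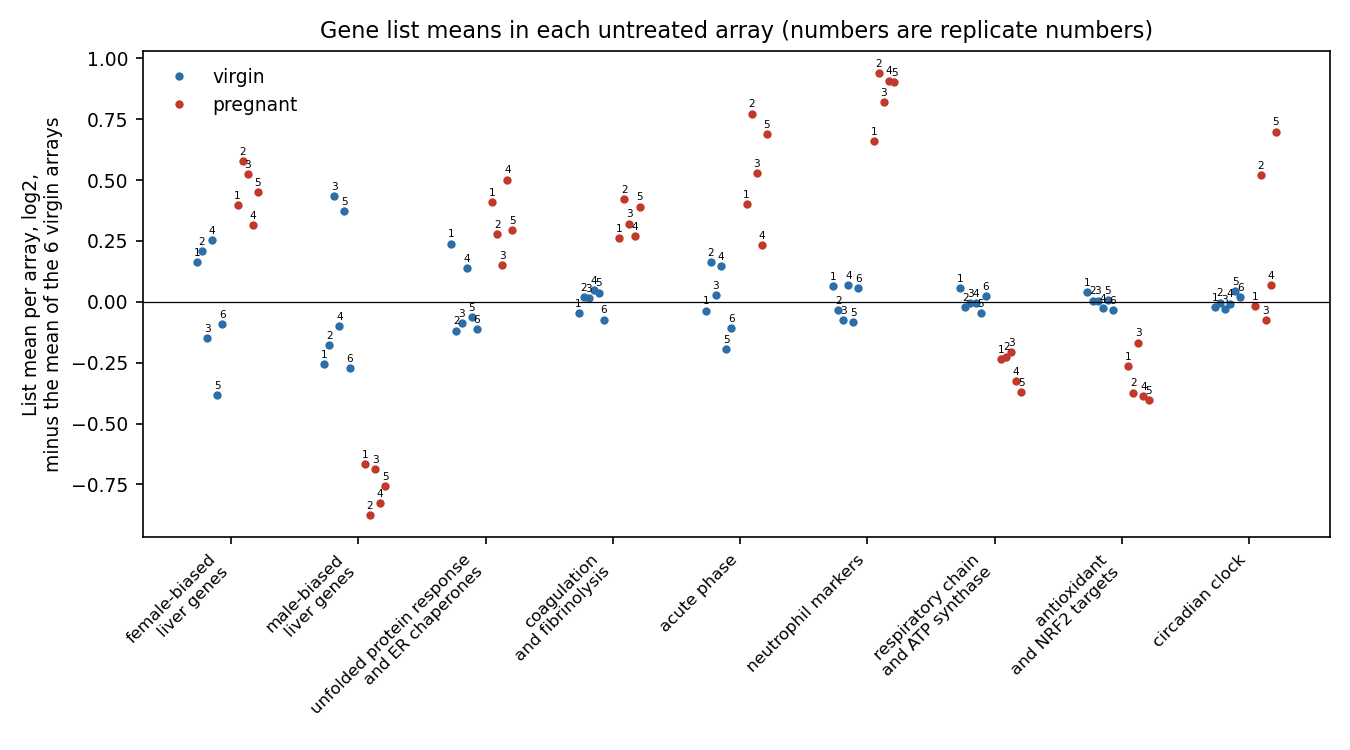
The mean log2 level of 9 gene lists on each untreated array, minus the mean of the 6 virgin arrays (y axis), with virgin arrays in blue, pregnant arrays in red and small numbers giving the replicate. Virgin replicates 3 and 5 are high in male-biased genes, virgin replicate 1 lies among the pregnant arrays in the chaperone list, and pregnant replicates 2 and 5 alone are high in clock genes.

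The same difference was available in the 3 sunscreen arms, which share no array with the untreated mice but come from the same 2 experiments, so they replicate the contrast without separating pregnancy from experiment. In those arms 9034 (38.6%, formulation), 8377 (35.8%, micro ZnO) and 8193 (35.0%, nano ZnO) probe sets were called. Of the 7442 untreated calls, 3775 (50.7%) were called with the same sign in all 3 arms, and of the 1106 past 1.5-fold, 917 (82.9%) were. All 12 of the largest rises and 8 of the 12 largest falls were among them. Serpina6 rose by 2.56, 2.36 and 2.16 in the formulation, micro ZnO and nano ZnO arms, and C9 fell by 2.43, 2.38 and 2.25. The falls not called in all 3 arms were Hsd3b2, Cyp4a12a, Elovl3 and Serpina4-ps1.

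The gene lists varied in how far their untreated counts recurred in the formulation, micro ZnO and nano ZnO arms. Neutrophil markers had 11, 16 and 14 of 17 higher and none lower, and coagulation genes 16, 15 and 18 of 25 higher and 2 lower in each. Respiratory chain genes had 29, 28 and 29 of 39 lower. All arms went through the same joint normalization, and list counts in the sunscreen arms were not repeated under other scalings. Recurrence across arms therefore does not address how such counts depend on scaling. Male-biased genes, with 14 lower and 1 higher in untreated mice, had 5 lower and 4 higher with formulation, 9 and 5 with micro ZnO and 7 and 4 with nano ZnO. Slco1a1, not called in untreated mice, was called higher in these arms, by 2.00, 1.33 and 1.76. Its virgin means there were 2.7, 3.0 and 3.1, against 6.9 untreated. Its pregnant means were 4.7, 4.4 and 4.9, against 6.5 untreated. Female-biased genes had 10 higher and 3 lower, 6 and 6, and 6 and 4. Glucocorticoid targets had 4 higher and 5 lower with formulation, 4 and 1 with micro ZnO and 3 and 0 with nano ZnO, against 8 and 1 in untreated mice. Cholesterol synthesis genes had 6 higher and 2 lower with formulation, 2 and 3 with micro ZnO and 1 and 4 with nano ZnO, against 6 and 0. Differences in these list counts between arms were not tested.

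A difference between the untreated contrast and the mean of the sunscreen arms (an interaction term) was called for 9 probe sets of 23410 (0.0384%), 2 higher and 7 lower in the untreated arm, and 2013 had an unadjusted p under 0.05. Mt1 rose more without sunscreen: its difference was 1.77 in untreated mice and 0.45, 0.65 and 0.82 in the formulation, micro ZnO and nano ZnO arms, a gap of 1.13 ± 0.21 (adjusted p = 0.00688). For Mt2 the gap of 1.08 was not called (adjusted p = 0.22). A gap in this term can come from the pregnant or the virgin mice. Slc39a4 fell by 0.94 in untreated mice and by 0.44 with formulation, and differed by 0.08 and -0.00 with micro and nano ZnO, a gap of -0.82 ± 0.13 (adjusted p = 0.000922). Ntrk2, a neurotrophin receptor, had the lowest p, at 3.83, 3.77, 3.76, 3.99 and 3.80 against 4.60 to 5.38 in untreated mice (-1.12 ± 0.10), against -0.35, -0.18 and -0.05 in the sunscreen arms (gap -0.93; adjusted p = 1.2e-05).

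Elovl3 fell by 1.72 in untreated mice against -0.80, -0.41 and -0.47 in the arms (gap -1.16, adjusted p = 0.0424). Its pregnant means were alike, at 3.55 untreated and 3.55, 3.65 and 3.33 in the arms. Its virgin means were 5.27 untreated and 4.35, 4.05 and 3.80 in the arms, so this gap lay in the virgin mice. Serpinb1a, an inhibitor of neutrophil proteases, fell by 1.21 against -0.64, 0.26 and 0.28 (gap -1.18, adjusted p = 0.00138). Slc10a2, the apical bile acid transporter, was not called in untreated mice (-0.02 ± 0.26; adjusted p = 0.965) and higher by 1.84, 1.51 and 2.11 in pregnant mice of the arms (gap -1.84; adjusted p = 0.00138). Ly6e, a lymphocyte antigen, differed by 0.17 in untreated mice against 0.60, 1.21 and 1.12 (gap -0.80; adjusted p = 0.0132). Apoa4, an apolipoprotein, differed by -0.45 (-0.17 under median centring; adjusted p = 0.246) against 0.22, 0.09 and 0.34 (gap -0.67; adjusted p = 0.00151). Cyp2a22, a P450, differed by 0.29 against -1.08, -1.38 and -1.65 (gap 1.66; adjusted p = 0.00307).

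**Figure D5:**
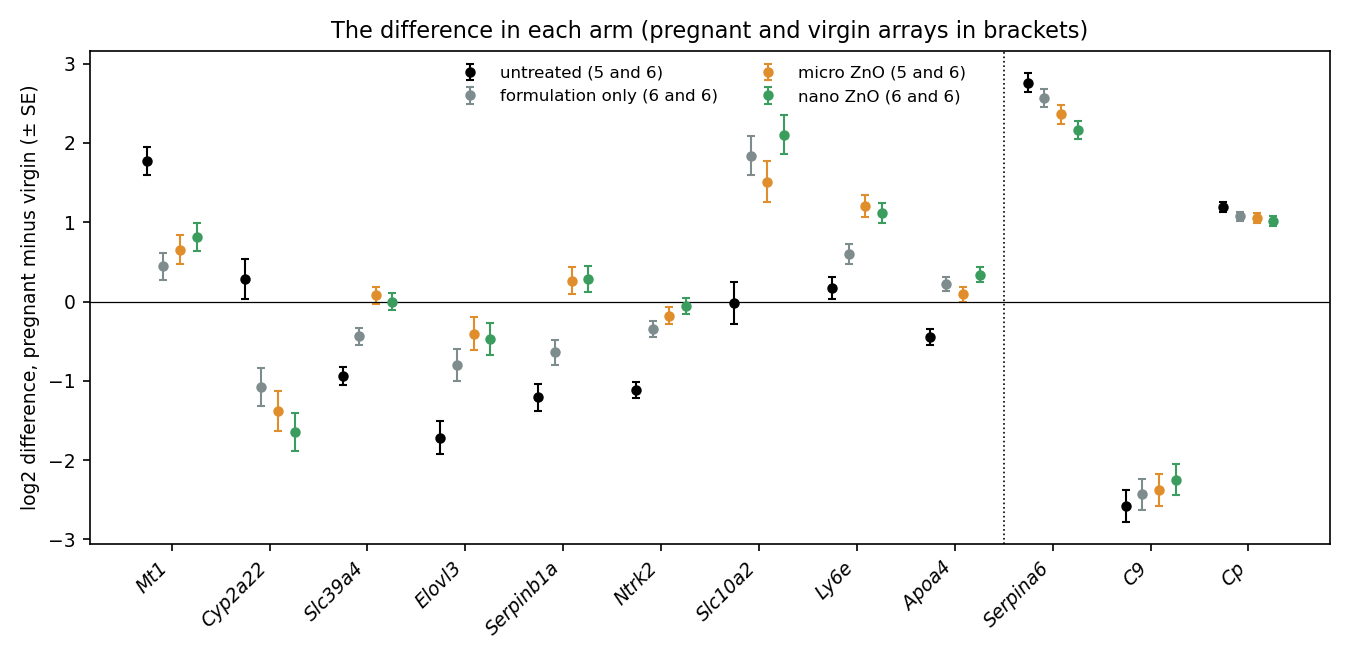
The log2 difference, pregnant minus virgin, ± SE (y axis) in the untreated arm and in the formulation, micro ZnO and nano ZnO arms, for the 9 genes called in the interaction (left of the dotted line) and 3 genes shown for comparison (right). The untreated point stands above the others for Mt1 and Cyp2a22 and below them for the other 7.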

How the data were processed

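The series' value table holds 46 arrays of whole-transcript mouse probe sets. Per the submitters' processing notes the deposited log2 values were made by the authors with RMA; its version and whether both experiments were normalized together are not given in the sources used here. Gene symbols came from the platform annotation: of 35512 probe sets, 21789 had 1 symbol, 1621 several and 12102 none, and the 23410 with a symbol were tested. A named gene is the probe set with 1 symbol and the highest mean over 46 arrays.

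All 46 arrays were quantile normalized together and fitted with limma 3.58.1 in R 4.3.3 (8 group means, moderated variance, two-sided, Benjamini-Hochberg over 23410 probe sets, called at adjusted p under 0.05). SE is limma's. Contrasts were pregnant minus virgin in each of the 4 arms and the untreated difference minus the mean of the other 3. The fit was tested on simulated data. Lists were counted without a test, and some genes are in several lists. The rule for named genes took, of the called genes with no overlap between arrays, the 12 that rose most and the 12 that fell most, up to 5 called members of each list, and 16 always-named genes, of which 2 were not analysed here; 30 further genes were named after their values were seen. The members and lists were chosen with earlier results of these data known. Array number limits the precision. Alternatives were other scalings, fits limited to 11 arrays, filters, moderation, array weights, a replicate block and leaving out arrays.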

Additional observations from a re-analysis of the deposited data

Results flagged for a closer look

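The named genes were partly chosen by their values and are not independent, so the count of far arrays was not set against chance. On 13 of 260 groups examined (each named gene in each untreated group), 1 array lay far from the others by Dixon's criterion. In pregnant liver these were replicate 4 for Ugt3a1 (5.86, the others 7.36 to 7.60), Gstm1 (10.05, the others 10.61 to 10.81), Akr1c18 (7.19, the others 4.60 to 5.08), Saa1 (5.52, the others 6.94 to 7.27) and Ly6e (9.48, the others 10.03 to 10.10), and replicate 2 for Serpinb1a (3.60, the others 4.26 to 4.52). In virgin liver these were replicate 1 for Pnpla3 (7.41, the others 5.17 to 5.47) and Mvd (7.67, the others 7.06 to 7.21), replicate 5 for Abcb11 (10.74), Slc2a2 (10.48), Lcn2 (6.52) and Peg3 (4.33), and replicate 6 for Gpx1 (11.69).

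The untreated difference departed from the mean of the sunscreen arms, by the interaction test, for Slc10a2 (-1.84), Serpinb1a (-1.18), Elovl3 (-1.16), Ntrk2 (-0.93), Slc39a4 (-0.82), Ly6e (-0.80), Apoa4 (-0.67), Mt1 (1.13) and Cyp2a22 (1.66).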

How the results depend on the processing

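On the values as deposited, with a median shift of -0.61, 21390 probe sets were called, 193 higher and 21197 lower; relative to that shift the counts were 8584, 4185 and 4399. Median centring gave 9248 calls, 6399 of them higher. Leaving out probe sets below the 40th percentile, which tests fewer, gave 4342 (2023 higher, 2319 lower), and asking for 1.5-fold gave 1106 (539 and 567). Leaving out 1 untreated array gave 6590 to 7084 calls, 2860 to 3197 higher and 3666 to 3951 lower. As deposited, the formulation, micro ZnO and nano ZnO arms had 21200, 21212 and 21454 calls, and without dim probe sets 5730, 5321 and 5057. Interaction calls numbered 19 as deposited, with or without the shift, 20 under median centring, 14 without dim probe sets and 33 with array weights; the cause was not tested.

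Same-numbered arrays did not deviate together (correlations of -0.135 to 0.034 over 5 pairs). Of the 5 pregnant arrays, 0 were closest to their own number. The labels give no pairing, and so few pairs cannot show that none exists. A replicate block gave 6224 calls, 2758 higher and 3466 lower, and changed the call of Canx, Cyp7a1 and Pck1 among the 130 named genes. Of 112 called named genes, 97 kept their call under all of the 22 alternatives that tested them. The values as deposited, with their median shift left in, were not among these 22. F12 reversed under median centring (0.022). Low signal limits dim genes: a fold from a level near 2 or 3 is compressed by the floor.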
